A study of Saccharomyces cerevisiae with 12 samples.

Results

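The trehalose genes of the budding yeast Saccharomyces cerevisiae are the 7 genes that make or split this storage sugar: TPS1, TPS2, TPS3 and TSL1 for its synthesis, and NTH1, NTH2 and ATH1 for its breakdown. They were taken by gene symbol, all 7 were measured, each by 1 probe set, and they are 7 of the 5449 genes tested. RNA from chemostat cultures was hybridised to Affymetrix yeast arrays, and the values are log2 intensities, so that a difference of 1 is a 2-fold difference. The null strain (KOY.VW101P) lacks the known hexose transporter genes, the reference strain (KOY.PK2-1C83P) is isogenic with them in place, and both are of the CEN.PK background. The groups were NULL20 (null strain, 20 min after a glucose pulse), NULL0 (null strain at steady state, 0 min), REF20 (reference strain, 20 min after the pulse) and REF0 (reference strain at steady state). All 4 groups grew on limiting ethanol at a dilution rate of 0.1 per h and had 3 arrays each. The series asks whether glucose must enter the cell to change transcription.

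Trehalose is a disaccharide of glucose that yeast stores together with glycogen and that protects proteins and membranes under stress. Tps1 joins UDP-glucose and glucose 6-phosphate to trehalose 6-phosphate, and Tps2 removes the phosphate. Tps3 and Tsl1 are related regulatory subunits of the same complex. Trehalose is split back to glucose by trehalases: Nth1 and its paralog Nth2, the neutral trehalases of the cytosol, and Ath1, the acid trehalase, which acts on trehalose outside the cell. In yeast, stored trehalose is known to be high in slow or respiratory growth and to be broken down when glucose arrives, with protein kinase A activating Nth1 by phosphorylation.

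The arrays of replicate 2 went against their time labels. The array labelled REF0 replicate 2 had a mean correlation across genes of 0.728 with replicates 1 and 3 of its own label and 0.992 with those of REF20. On the REF20, REF0 and NULL20 arrays of replicate 2, all 7 trehalose genes lay nearer to the other labelled time of their strain, and on NULL0 replicate 2 it was 6 of 7. Results are therefore given for replicates 1 and 3 (8 arrays, 2 per group), with the values of all 12 arrays as labelled beside them, and the direction given for a change over time is the one these 8 labels give. Of 7 transporter genes checked, 6 separate the strains as labelled: on all 6 null arrays the deposited values of HXT1 to HXT5 and HXT7 were at most 0.143 log2 units over the lowest of the array, and on all 6 reference arrays they were more than 0.25 over it. The seventh, GAL2, was within 0.25 of the lowest on all 12 arrays and does not separate them. The series calls its replicates biological triplicates without saying whether each had a chemostat of its own, so p-values measure the spread between these arrays, whose small number limits the precision. In RNA of a whole culture, fewer expressing cells and less RNA per cell cannot be told apart.

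In the reference strain, all 4 synthesis genes fell after glucose, and so did 2 of the 3 trehalase genes, while the main neutral trehalase gene NTH1 was not called. In limma, 6 of the 7 genes passed as lower (adjusted p under 0.05 over all genes) and none as higher. Of all tested genes 72.3% were called, 33.0% lower and 39.3% higher. The median difference of the 7 genes was -4.22 log2 units, against 0.13 over all genes.

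TPS1, the synthase, had normalized log2 intensities of 9.16 and 9.36 on the REF20 arrays, against 13.46 and 13.50 on the REF0 arrays of replicates 1 and 3. The groups were far apart, and the replicate 2 arrays mirrored them, with 13.52 under the 20 min label and 9.24 under the 0 min label. TPS1 fell by 4.22 (SE 0.12, limma adjusted p = 1.29e-05), an 18.6-fold lower intensity. TPS2, the phosphatase of the next step, had 9.18 and 9.08 on the REF20 arrays, against 13.46 and 13.64 on the REF0 arrays. It fell by 4.42 (SE 0.15, limma adjusted p = 1.60e-05), with no overlap between the groups. The TPS2 arrays of replicate 2 had 13.35 under the 20 min label and 9.15 under the 0 min label.

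TSL1, the regulatory subunit gene, had the largest fall of the 7. It had 6.73 and 7.22 on the REF20 arrays, against 12.94 and 12.99 on the REF0 arrays, with 13.02 and 7.22 on the replicate 2 arrays labelled 20 and 0 min. The groups lay far apart, and TSL1 fell by 5.99 (SE 0.21, limma adjusted p = 1.62e-05), a 63.7-fold lower intensity. Of all tested genes 0.863% had a lower difference than TSL1. TPS3, its relative in the complex, had 7.60 and 6.10 on the REF20 arrays, against 11.05 and 11.35 on the REF0 arrays. The REF20 arrays disagreed by more than for the other genes, while both stayed below both REF0 arrays. TPS3 fell by 4.34 (SE 0.48, limma adjusted p = 0.000594), and the difference was -5.09 without REF20 replicate 1 and -3.60 without REF20 replicate 3.

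The trehalase genes divided. ATH1, the acid trehalase, had 9.09 and 8.86 on the REF20 arrays, against 12.10 and 12.69 on the REF0 arrays, and fell by 3.42 (SE 0.21, limma adjusted p = 7.55e-05). NTH2 had 10.01 and 9.53 on the REF20 arrays, against 12.05 and 11.87 on the REF0 arrays. It fell by 2.19 (SE 0.19, limma adjusted p = 0.000233), the smallest fall among the 6 genes called. NTH1, its paralog, had 12.81 and 12.86 on the REF20 arrays, against 12.90 and 12.63 on the REF0 arrays. These groups overlapped, and the difference of 0.08 (SE 0.14) did not pass (limma adjusted p = 0.649), with a 95% interval of -0.27 to 0.42. That interval lay apart from the one of NTH2, -2.66 to -1.71. Whether NTH1 and NTH2 probe sets read each other's transcript was not tested.

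**Figure D1:**
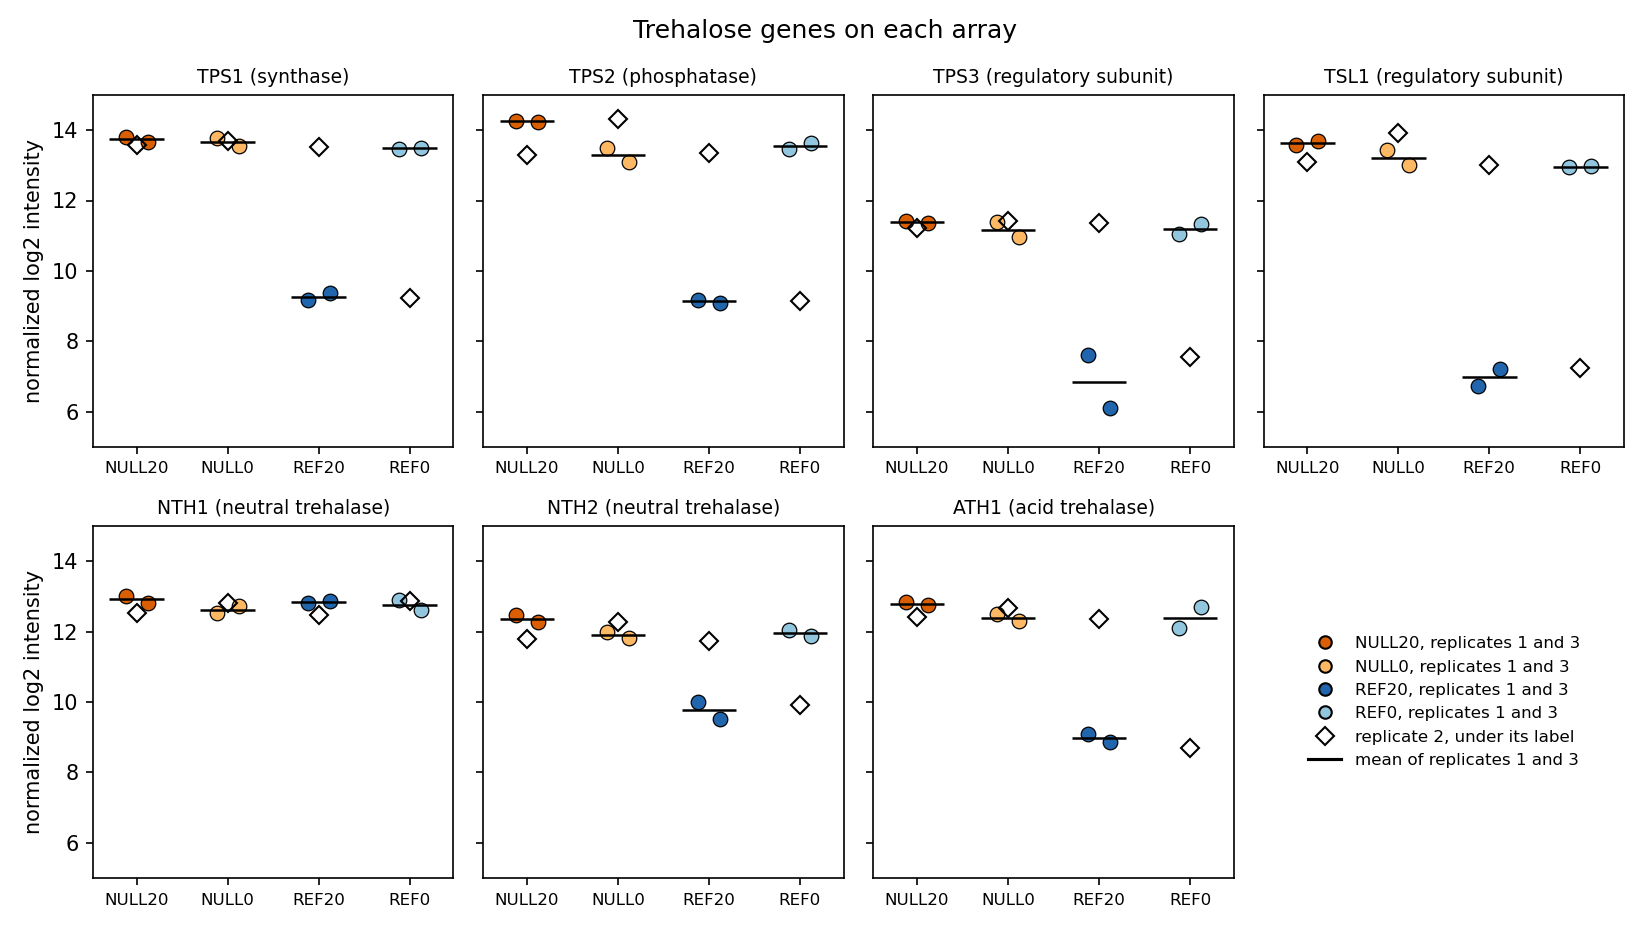
Normalized log2 intensity of the 7 trehalose genes on each array, by group. Filled points are replicates 1 and 3, open diamonds are replicate 2 under its own label, and lines are means of replicates 1 and 3. In the REF20 group 6 genes lie far below the other groups (TSL1 at 6.73 and 7.22), the replicate 2 diamonds of the reference strain sit with the other time, and NTH1 stays between 12.47 and 13.01 on all 12 arrays.

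The sizes of these falls depended on the scaling, and the direction of these 6 genes was the same under each scaling tried. Values as deposited gave -7.82 for TSL1, -6.21 for TPS3, -5.15 for TPS2, -4.87 for TPS1, -4.30 for ATH1 and -2.71 for NTH2. TSL1 and TPS3 came nearest to the bottom of the scale. Their lowest deposited values were 2.83 and 2.22 log2 units over the lowest of the array, against 5.87 to 10.4 for the other genes. Centring each array on its median gave -7.32 for TSL1, -5.71 for TPS3, -4.65 for TPS2, -4.37 for TPS1, -3.80 for ATH1 and -2.21 for NTH2. NTH1 was at 0.07 as deposited, but with centred arrays it was called higher by 0.57 (limma adjusted p = 0.0117). Under the labels of all 12 arrays none of the 7 genes was called, and 0.00% of all genes were (0 of 5449, with 16 at an unadjusted p under 0.05). The log2 differences there ran from -2.06 for TSL1 to -0.084 for NTH1, with limma adjusted p of 0.757 to 0.820.

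In the null strain none of the 7 genes fell. TPS2 rose, and the other 6 did not pass the test. In limma, 1 of the 7 genes passed as higher and none as lower, where 27.5% of all genes were called, 12.9% higher and 14.7% lower. The count of 1 higher is thus near the share over all genes. The median difference of the 7 genes was 0.40 log2 units, against 0.04 over all genes.

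TPS2 had 14.26 and 14.24 on the NULL20 arrays, against 13.50 and 13.11 on the NULL0 arrays. The groups did not overlap, and TPS2 rose by 0.95 (SE 0.15, limma adjusted p = 0.0113), a 1.93-fold higher intensity. The call was lost without NULL20 replicate 3 (0.95, adjusted p = 0.0527), with only the null arrays in the limma fit (adjusted p = 0.0611) and with array weights on all 12 arrays (0.73, adjusted p = 0.0781). The replicate 2 arrays ran the other way, with 13.30 under the 20 min label and 14.31 under the 0 min label.

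The remaining synthesis genes did not pass. TPS1 had 13.82 and 13.68 on the NULL20 arrays, against 13.77 and 13.55 on the NULL0 arrays. The groups overlapped, and the limma interval of the difference, -0.22 to 0.39, left out any fall near the size seen in the reference strain. TSL1 had 13.58 and 13.69 on the NULL20 arrays, against 13.43 and 12.9998 on the NULL0 arrays, without overlap, and the difference was 0.43 with an interval of -0.11 to 0.96. It was 0.21 without NULL0 replicate 3, 0.64 without NULL0 replicate 1 and 0.68 with centred arrays, and did not pass in any of these. TPS3 had 11.41 and 11.35 on the NULL20 arrays, against 11.38 and 10.96 on the NULL0 arrays, with overlap and the widest interval, -1.01 to 1.43.

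The trehalase genes did not pass either. NTH1 had 13.01 and 12.83 on the NULL20 arrays, against 12.53 and 12.73 on the NULL0 arrays, without overlap, and the difference was 0.29 (interval -0.05 to 0.63). It was called higher by 0.54 with arrays centred on their medians (limma adjusted p = 0.0387) and by 0.36 with array weights on all 12 arrays (adjusted p = 0.0186). NTH2 had 12.47 and 12.28 on the NULL20 arrays, against 11.99 and 11.82 on the NULL0 arrays. The NTH2 groups did not overlap, yet the difference of 0.47 (SE 0.19) missed the threshold (limma adjusted p = 0.121). ATH1 had 12.85 and 12.75 on the NULL20 arrays, against 12.49 and 12.31 on the NULL0 arrays, and its difference of 0.40 (SE 0.21) also missed it (adjusted p = 0.221).

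All 7 genes had a higher value at 20 than at 0 min in both replicate numbers 1 and 3 of the null strain, which held for 39.3% of all genes. Arrays of the same number are not known to be pairs, so this count depends on how they are matched. Without NULL0 replicate 3 the difference was -0.021 for TPS1 and -0.0019 for TPS3, while the other genes stayed higher. With values as deposited it held for 6 of the 7, with TPS3 the exception. In replicate 2, as labelled, all 7 had a lower value at 20 min. With all 12 arrays as labelled none of the 7 was called in the null strain (limma adjusted p = 1.00 for each, 0.00% of all genes called, 21 genes at an unadjusted p under 0.05).

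**Figure D2:**
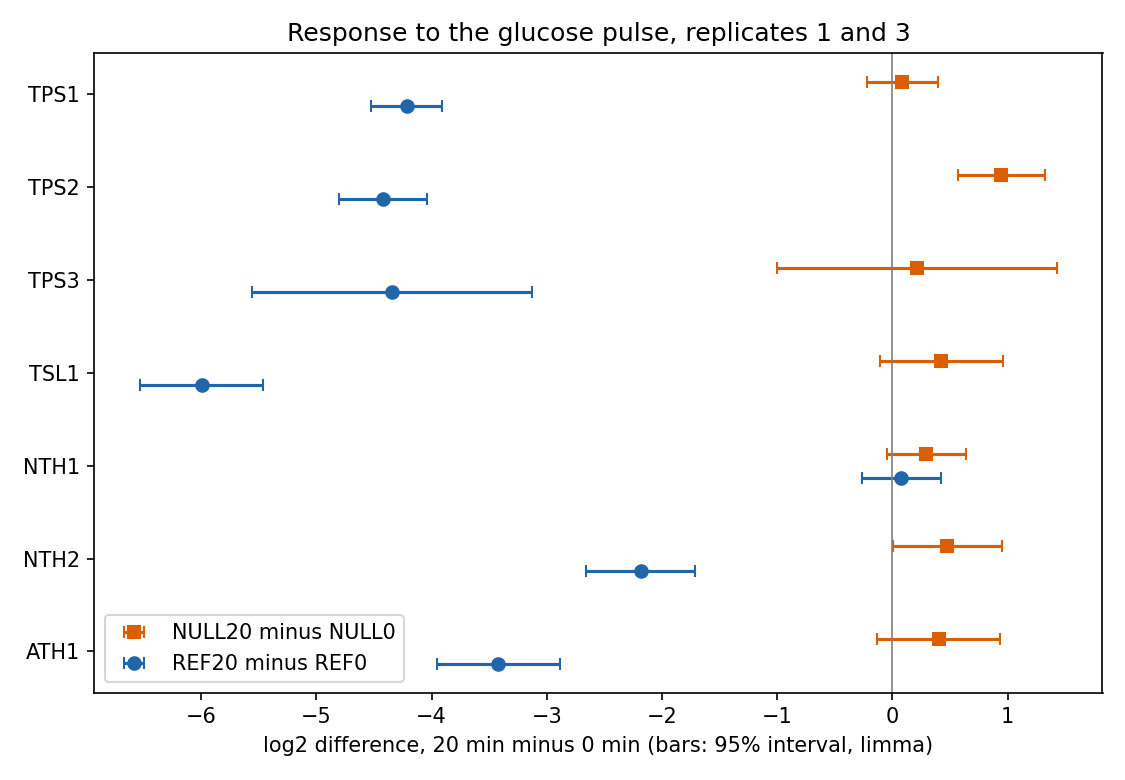
Log2 difference between 20 and 0 min for each trehalose gene, null strain (squares) and reference strain (circles), over replicates 1 and 3. Bars are 95% intervals from limma. In the reference strain 6 genes lie at -5.99 to -2.19 with intervals below 0, NTH1 lies at 0.08, and the null strain values lie between 0.09 and 0.95.

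The strain difference in response, taken as the null response minus the reference response, passed for 6 of the 7 genes, all but NTH1 and all with the higher value in the null strain. Of all genes 66.3% were called, 32.4% in that direction and 33.9% in the other. TSL1 had a response of 0.43 in the null strain and -5.99 in the reference strain, a difference of 6.42 (SE 0.30, limma adjusted p = 6.28e-05). TPS2 had 0.95 in the null strain and -4.42 in the reference strain, a difference of 5.37 (SE 0.21, adjusted p = 5.44e-05), and it is the gene of the 7 that was called in both strains with opposite sign. For TPS3, TPS1, ATH1 and NTH2 the limma differences were 4.55, 4.30, 3.82 and 2.66, with adjusted p of 5.44e-05 to 0.00233. Values as deposited gave larger differences, 8.26 for TSL1, 6.31 for TPS3, 6.12 for TPS2, 4.97 for TPS1, 4.69 for ATH1 and 3.13 for NTH2, so the order of TPS3 and TPS2 depends on the scaling. NTH1 had 0.29 in the null strain and 0.08 in the reference strain, and its difference of 0.21 did not pass (limma adjusted p = 0.369, interval -0.27 to 0.70). With all 12 arrays as labelled none passed (limma adjusted p = 0.877 for each gene, 17 of all genes at an unadjusted p under 0.05 and 0.00% called).

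Before the pulse the strains were not told apart by any of the 7 genes. On ethanol, limma called none of them between NULL0 and REF0, where 1.28% of all genes were called, 0.881% higher and 0.404% lower. None of the 7 passed at an unadjusted p under 0.05 either, since every 95% interval held 0. The interval of NULL0 minus REF0 was -0.13 to 0.49 for TPS1, -0.63 to 0.13 for TPS2, -0.29 to 0.78 for TSL1, -0.47 to 0.21 for NTH1, -0.53 to 0.42 for NTH2 and -0.53 to 0.54 for ATH1. TPS3 was the least well measured, with an interval of -1.24 to 1.19. All 12 arrays as labelled called 0.459% of all genes and none of the 7, and put the 6 genes other than NTH1 higher in NULL0, by 0.76 for NTH2 to 2.40 for TSL1, with limma adjusted p of 0.673 to 0.676.

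After the pulse the strains lay far apart in all of the 7 genes but NTH1. In limma, 6 of 7 were higher in NULL20 than in REF20, where 75.4% of all genes were called, 36.5% higher and 38.8% lower. This comparison shares its arrays with those above, so it restates their values from the other side. TSL1 averaged 13.64 in NULL20 and 6.97 in REF20, 6.67 higher (SE 0.21, limma adjusted p = 8.78e-06), and 99.0% of all genes had a lower difference. The other 5 were higher by 5.12 for TPS2, 4.53 for TPS3, 4.48 for TPS1, 3.83 for ATH1 and 2.60 for NTH2, with limma adjusted p of 7.60e-06 to 0.000411. As deposited the differences were 8.54 for TSL1, 6.23 for TPS3, 5.901 for TPS2, 5.18 for TPS1, 4.67 for ATH1 and 3.06 for NTH2. NTH1 averaged 12.92 in NULL20 and 12.84 in REF20, and the difference of 0.08 did not pass (limma adjusted p = 0.613). With all 12 arrays as labelled 0.642% of all genes and none of the 7 were called, with differences of 1.76 to 4.47 for the 6 genes and limma adjusted p of 0.115 to 0.128.

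**Figure D3:**
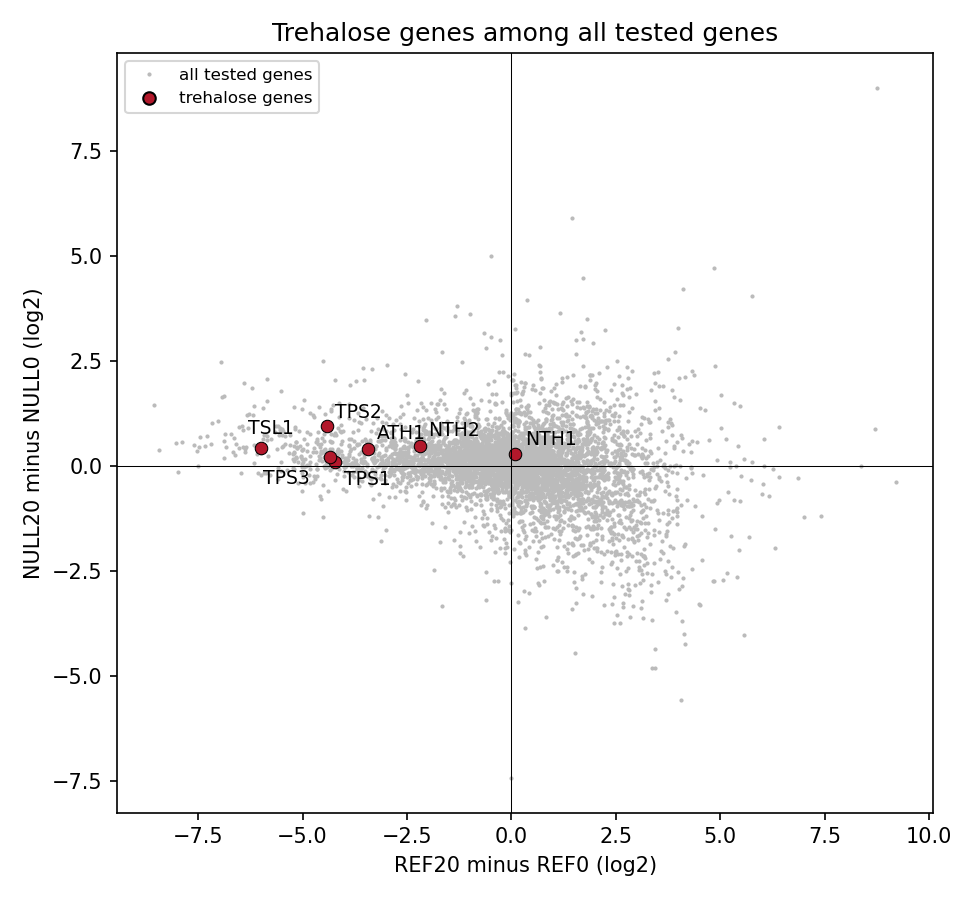
Log2 difference between 20 and 0 min in the null strain (vertical axis) against the reference strain (horizontal axis) for all 5449 tested genes (grey) and the 7 trehalose genes (red), over replicates 1 and 3. Of the red points 6 lie left of 0 near the horizontal line, TSL1 farthest left at -5.99, and NTH1 lies near the origin at 0.08 and 0.29.

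Over the 8 arrays the synthesis genes, ATH1 and NTH2 had similar patterns, and NTH1 had another. Pearson correlations of the normalized values between TPS1 and TPS2, TPS3, TSL1, ATH1 and NTH2 were 0.974 to 0.998. These are descriptions over 8 arrays, and they share the single step between the REF20 group and the other groups. The genes most like TPS1 were PCK1, which encodes the gluconeogenic enzyme phosphoenolpyruvate carboxykinase (r = 0.999), YTP1 (r = 0.999) and DDI1 (r = 0.999). Such likeness was common, with 904 of 3552 compared genes above 0.95. NTH1 correlated with the other 6 genes at -0.22 to -0.07. The genes most like NTH1 were SLX8, a subunit of a SUMO-targeted ubiquitin ligase (r = 0.850), PET18 (r = 0.834) and STP4 (r = 0.827), and no gene of 3553 was above 0.95. NTH1 had an SD of 0.154 over the 8 arrays, against 2.03 for TPS1, so its correlations rest on a narrow range.

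Of the 6 genes that supply the substrates of Tps1, 1 fell and 5 did not pass in the null strain (median 0.15), while 5 fell and 1 did not pass in the reference strain (median -3.66). The share of all genes that fell was 14.7% in the null strain (all-gene median 0.04) and 33.0% in the reference strain (0.13), so the count of 1 in the null strain is near the share over all genes. With centred arrays 2 supply genes, HXK1 among them at 0.68, were called higher in the null strain (limma adjusted p = 0.0264 for HXK1). With all 12 arrays as labelled, none of the 19 supply, trehalase and stress genes described here was called in any comparison. PGM2, the main phosphoglucomutase, fell by 5.14 in the reference strain (SE 0.32, limma adjusted p = 7.65e-05). UGP1, which makes UDP-glucose, fell by 3.17 there (SE 0.14, limma adjusted p = 2.59e-05). Among the enzymes that make glucose 6-phosphate, HXK1 fell by 4.90 and GLK1 fell by 4.15. HXK2, the hexokinase that predominates during growth on glucose, had another pattern. It had 12.56 and 12.29 on the NULL20 arrays, against 13.41 and 13.46 on the NULL0 arrays, and fell by 1.01 in the null strain (SE 0.12, limma adjusted p = 0.00496). In the reference strain HXK2 had 12.96 and 13.04 on the REF20 arrays, against 13.08 and 13.20 on the REF0 arrays, and did not pass at -0.14, a value that was 0.38 with arrays centred on their medians. The responses of HXK2 differed between the strains by -0.87 (limma adjusted p = 0.00613).

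Among 7 genes that act on trehalase activity, in the null strain 2 rose, 1 fell and 4 did not pass (median 0.26), and in the reference strain 6 fell and 1 rose (median -2.65). Of all genes in the null strain 12.9% rose and 14.7% fell, against 39.3% that rose and 33.0% that fell in the reference strain, so the count of 1 lower in the null strain is at the share over all genes. In the reference strain DCS1, whose product is known to inhibit Nth1, had 7.93 and 8.21 on the REF20 arrays, against 12.60 and 12.79 on the REF0 arrays, and fell by 4.63 (SE 0.13, limma adjusted p = 1.28e-05). Its paralog DCS2 fell by 4.49. BMH2, a 14-3-3 protein gene, fell by 2.65 (14-3-3 proteins bind phosphorylated Nth1 and activate it). Of the catalytic subunits of protein kinase A, TPK2 fell by 4.15 (limma adjusted p = 2.56e-05) and TPK3 rose by 2.40 (adjusted p = 0.000251).

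TPK3 was lower in the null strain after glucose. It had 7.39 and 7.04 on the NULL20 arrays, against 9.67 and 9.42 on the NULL0 arrays, while the REF20 arrays had 11.58 and 11.77 and the REF0 arrays 9.51 and 9.05. The responses thus had opposite signs, -2.33 in the null strain (SE 0.21, limma adjusted p = 0.00297) and 2.40 in the reference strain, and they differed by -4.72 (adjusted p = 0.000124). DCS1 and DCS2 rose by 0.53 and 0.58 in the null strain (limma adjusted p of 0.0399 and 0.0393), but both calls were lost when any 1 of the 4 null arrays was left out (adjusted p of 0.0941 to 0.148) and with values as deposited (0.0998 and 0.114). In those cases the list had 1 gene lower and none higher in the null strain.

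Regulators of stress genes that act on trehalose genes were compared by their transcripts. Of 6 genes 2 rose and 4 did not pass in the null strain (median 0.34), and 4 fell and 2 did not pass in the reference strain (median -1.35). Called genes made up 27.5% of all genes in the null strain and 72.3% in the reference strain, near the shares of this list called in either direction. By direction, 12.9% of all genes rose in the null strain and 33.0% fell in the reference strain. Those are below the shares of this list, which holds only 6 genes. In the null strain GIS1 rose by 1.36 (SE 0.23, limma adjusted p = 0.0131), a call lost without NULL20 replicate 1 (adjusted p = 0.0543) and without NULL20 replicate 3 (0.0597). YAK1, a kinase that acts against growth signals, rose by 0.79 (adjusted p = 0.0294), a call lost when any 1 of the null or REF0 arrays was left out (adjusted p up to 0.112) and with values as deposited (0.0581). In the reference strain YAK1 had 7.43 and 7.75 on the REF20 arrays, against 11.87 and 11.77 on the REF0 arrays, and fell by 4.23 (SE 0.18, limma adjusted p = 2.53e-05). GIS1 fell by 1.82, RIM15 fell by 1.54 and HSF1 fell by 1.16, and as deposited the values were -2.42 for GIS1, -2.64 for RIM15 and -1.82 for HSF1. MSN2 and MSN4, whose products activate stress genes through the stress response element, were at -0.16 and 0.48 and did not pass (limma adjusted p of 0.484 and 0.111). The value of MSN4 depended on the scaling, with a call as lower at -0.89 as deposited (limma adjusted p = 0.00556), -0.39 with arrays centred on their medians, and a call as higher at 0.74 without REF0 replicate 1 (adjusted p = 0.0439).

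**Figure D4:**
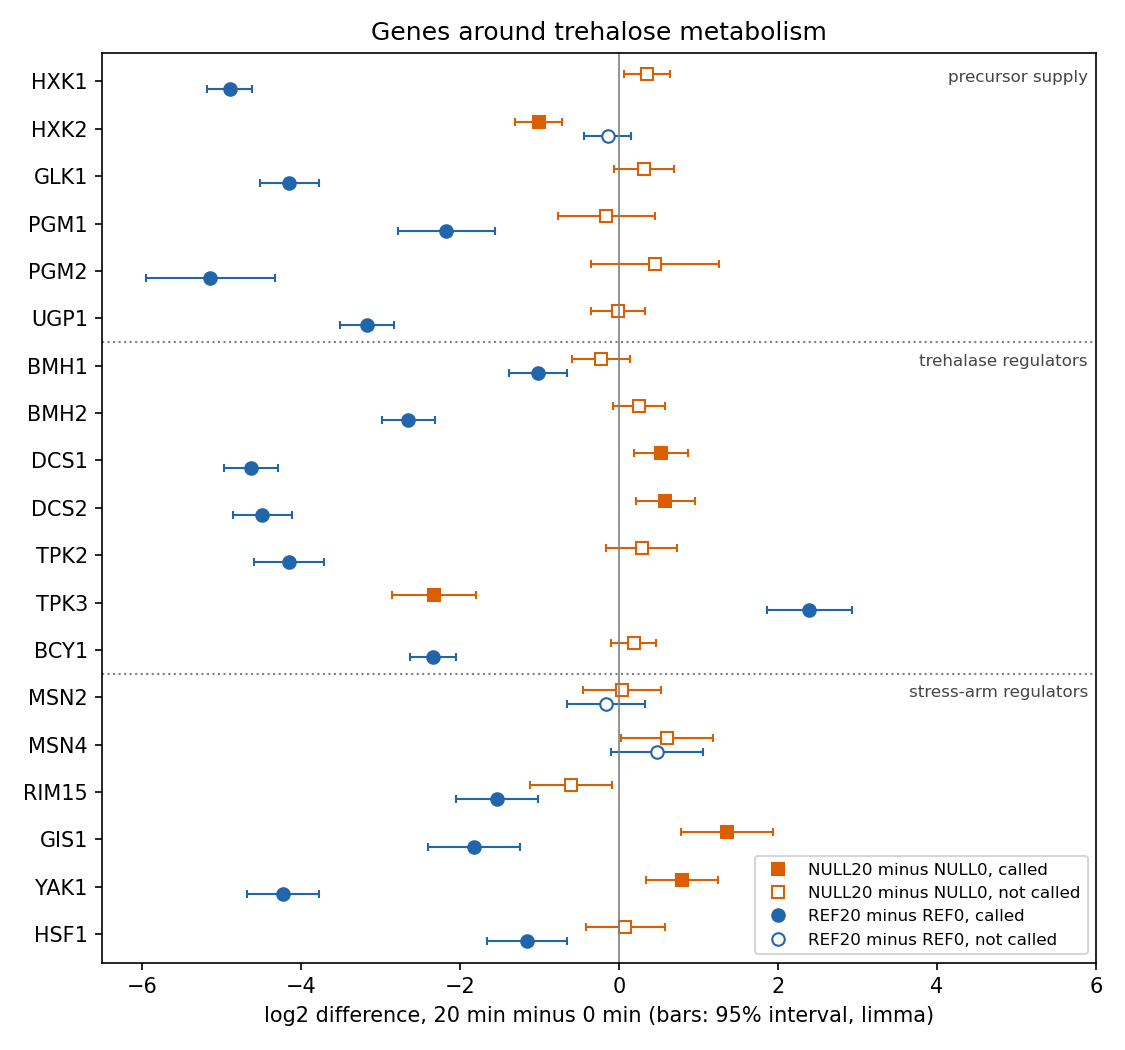
Log2 difference between 20 and 0 min for 19 genes around trehalose metabolism, null strain (squares) and reference strain (circles), with 95% intervals from limma over replicates 1 and 3; filled symbols passed at an adjusted p under 0.05. In the reference strain most genes lie below 0, HXK2, MSN2 and MSN4 did not pass, and TPK3 lies at 2.40, against -2.33 in the null strain.

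MAL11, an alpha-glucoside permease that also carries trehalose, lay at the bottom of the scale in the null strain. It had 2.06 and 2.25 on the NULL20 arrays and 2.27 and 2.23 on the NULL0 arrays of replicates 1 and 3, where the lowest normalized value was 2.06. On all 6 null arrays the deposited MAL11 value was at most 0.0146 over the lowest of the array. It had 8.92 and 9.50 on the REF20 arrays, against 11.46 and 12.25 on the REF0 arrays, and fell by 2.65 in the reference strain (SE 0.31, limma adjusted p = 0.000712). It was lower in the null strain at both times, with limma adjusted p of 0.000148 at 0 min and 1.78e-05 at 20 min, and it stayed so with all 12 arrays as labelled. HXT1 to HXT5 and HXT7 lay at the bottom of the scale on these null arrays too. Whether the null strain still carries MAL11 was not tested, so these strain differences cannot be read as a change in its expression. Distances in the RefSeq gene order were taken only to the HXT genes, GAL2, STL1, MAL11, MPH2 and MPH3, not to other transporter genes. The nearest of these to a trehalose gene was 112 genes away, for TSL1. None of them lay on the chromosomes of TPS1, NTH2 and ATH1.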

How the data were processed

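Values deposited by the authors are log2 intensities, 1 for each array and probe set. Per the labels' protocols, biotinylated cRNA was made from total RNA, and the software and normalization behind the values are not given in the sources used here. Of 10928 probe sets 7244 have 1 gene symbol, 1 has several and 3683 have none in the probe table. Matching by gene identifier to RefSeq gave 5498 probe sets of S. cerevisiae for 5449 genes, and a gene with several was read from the brightest on average. Array medians ranged from 10.34 to 10.90, so quantile normalization over the 12 arrays was applied. A limma 3.58.1 model (R 4.3.3) with 4 group means was fitted to the 8 arrays of replicates 1 and 3 (4 residual degrees of freedom; 8 with 12 arrays), followed by eBayes, and p-values were adjusted by Benjamini-Hochberg across the 5449 genes. SE and 95% intervals come from that fit, and called means an adjusted p under 0.05. Replicate 2 was set aside because of its values; members, lists and tests were chosen with earlier results of these data known. All 7 members were named, with, per list and comparison, at most 4 further genes of largest difference plus those whose role a sentence needed. Likeness used genes with an SD of at least 0.5. The pipeline was tested on simulated data of 8 arrays with changes set in REF20 only. For REF20 against REF0 it recovered 36 of 67 changes of 1 log2 unit, 59 of 67 of 2 and 66 of 66 of 4. There, 7 genes without a set change were called. Changes of 1 log2 unit or less can thus go uncalled with this number of arrays. Alternatives covered arrays, array weights, scaling, probe sets, dim genes, variance model, replicate block and threshold. Figures were drawn with matplotlib 3.10.9.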

Additional observations from a re-analysis of the deposited data

Results flagged for a closer look

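The response to glucose differed between the strains by the interaction term of the limma fit over replicates 1 and 3 for 6 of the 7 trehalose genes, where 66.3% of all genes were called, 32.4% in the same direction. The null response minus the reference response was 6.42 log2 units for TSL1, 5.37 for TPS2, 4.55 for TPS3, 4.30 for TPS1, 3.82 for ATH1 and 2.66 for NTH2. NTH1, at 0.21, was not among them. With all 12 arrays as labelled, these differences were 2.08, 1.84, 1.69, 1.41, 1.23 and 1.00, and none passed.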

How the results depend on the processing

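Of the 7 trehalose genes, 6 were called for REF20 against REF0, for the strain difference in response and for NULL20 against REF20, 1 for NULL20 against NULL0 and 0 for NULL0 against REF0. All 12 arrays as labelled gave 0 in each. For NULL20 against NULL0 the count was 2 with centred arrays, 0 with only the groups compared and 0 at an adjusted p under 0.01. Leaving out each array in turn gave 0 to 1 there, 6 to 6 for the 3 larger counts and 0 to 0 for NULL0 against REF0. The cause was not tested, and fits without an array or a group hold fewer arrays. Signs turned for small differences. In REF20 against REF0, NTH1 was at -0.084 and HXK2 at 0.060 with all 12 arrays, HXK2 at 0.38 and MSN4 at -0.39 with centred arrays, and MSN4 at -0.89 as deposited. In NULL0 against REF0, all 12 arrays gave 1.55 for TPS2, 1.27 for TPS3 and 0.76 for NTH2, array weights 0.19 for TPS3 and 0.041 for NTH2, centred arrays 0.037 for TPS3 and 0.034 for NTH2, and deposited values -0.017 for ATH1. With centred arrays NTH1 was at -0.035 for the strain difference in response and -0.043 for NULL20 against REF20. Leaving out each array gave ranges across 0. These were -0.059 to 0.21 for NTH1 in REF20 against REF0, -0.021 to 0.19 for TPS1 and -0.0019 to 0.42 for TPS3 in NULL20 against NULL0, and -0.0071 to 0.17 for NTH1 in NULL20 against REF20. In NULL0 against REF0 they were -0.24 to 0.19 for TPS3, -0.27 to 0.0042 for NTH1, -0.14 to 0.034 for NTH2 and -0.29 to 0.30 for ATH1. The median over all genes for REF20 against REF0 was 0.13, and -0.38 as deposited, where 1419 genes were called higher and 2491 lower, against 2140 and 1800. As deposited 250 were higher and 1183 lower for NULL20 against NULL0, against 702 and 799. Over all genes, 564 were called there with only the groups compared, 873 without NULL0 replicate 3, 960 without NULL20 replicate 1 and 750 without NULL20 replicate 3, against 1501. For NULL0 against REF0, 70 were called, against 10 to 138 over the alternatives. Same-numbered arrays deviated from their group means with a correlation of -0.29 in the null strain and 0.081 in the reference strain, so numbers were not taken as pairs. With the replicate block the same counts of trehalose genes were called (6, 6, 6, 1 and 0), DCS1 and DCS2 in NULL20 against NULL0 were not (adjusted p = 0.0574 and 0.0694), and 1234 genes in all were. The calls of DCS1 and DCS2 there were also lost with array weights on all 12 arrays and with only the groups compared. That of DCS1 was lost as well when either REF0 array was left out.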
